A study of Mus musculus with 6 samples.

Results

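The transcripts of 10 Polycomb genes (*Ezh1*, *Ezh2*, *Eed*, *Suz12*, *Jarid2*, *Mtf2*, *Cbx2*, *Cbx7*, *Ring1* and *Rnf2*) were followed in mouse embryonic fibroblasts (MEFs) undergoing reprogramming with and without active AKT. They were taken by symbol from a table of 54331 genes, where all 10 were present, and all 10 reached the mean of at least 1 TPM (transcript abundance scaled for length and to a common library total) required for testing. The MEFs came from mixed E13.5 male embryos on a mixed C57BL/6, DBA/2 and ICR background that carried an *Oct4-EGFP* transgene, in which a green fluorescent protein marks cells with an active *Oct4* promoter and enhancer. In both groups the cells were infected with retroviruses for OCT4, SOX2, KLF4 and AKT-MER (OSKA). AKT-MER is a myristoylated AKT fused to a modified estrogen receptor and acts once the ligand 4-hydroxytamoxifen (4OHT) is added. The OSKA + 4OHT group received 4OHT from 3 days postinfection (dpi), the OSKA − 4OHT group received the ethanol vehicle, and unsorted wells were sampled at 10 dpi with 3 libraries per group. The wells were plated from a common transduction, so the p-values below measure the spread between wells, which may be technical.

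Polycomb proteins keep developmental genes silent through chromatin. Polycomb repressive complex 2 (PRC2) methylates lysine 27 of histone H3, and Polycomb repressive complex 1 (PRC1) ubiquitinates histone H2A and compacts the marked chromatin. Several places in each complex can be filled by alternative paralogs, and fibroblasts and pluripotent stem cells use different ones: CBX7 is known as the main chromobox protein of PRC1 in mouse embryonic stem cells, while EZH1 is the methyltransferase that persists in cells that divide little.

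The promoters of the PRC2 methyltransferase genes and of *Suz12* are shown because these 3 genes differ in direction and because E2F factors, which drive genes of the cell cycle, are known regulators of *Ezh2*. The sequences are from RefSeq on GRCm38.p6, cover 250 bases before and 50 bases after the annotated start, and are written 5′ to 3′ on the strand of the gene. Capitals mark a match to the E2F motif TTTCCCGC or TTTGGCGC, searched on both strands.
Ezh1, chr11:101226414-101226713, minus strand: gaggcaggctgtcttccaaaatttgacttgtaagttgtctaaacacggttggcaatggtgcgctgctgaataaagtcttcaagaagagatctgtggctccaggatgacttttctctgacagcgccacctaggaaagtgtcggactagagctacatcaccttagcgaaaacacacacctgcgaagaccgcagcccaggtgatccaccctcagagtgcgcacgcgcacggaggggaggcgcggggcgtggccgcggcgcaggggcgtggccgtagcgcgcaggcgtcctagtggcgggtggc
Ezh2, chr6:47594981-47595280, minus strand: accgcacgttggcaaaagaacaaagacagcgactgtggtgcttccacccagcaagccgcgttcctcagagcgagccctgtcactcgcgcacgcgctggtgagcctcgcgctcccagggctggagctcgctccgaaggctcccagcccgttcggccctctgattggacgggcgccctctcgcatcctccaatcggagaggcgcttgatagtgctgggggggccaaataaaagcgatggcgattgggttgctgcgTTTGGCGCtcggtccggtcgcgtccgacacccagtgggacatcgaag
Suz12, chr11:79992856-79993155, plus strand: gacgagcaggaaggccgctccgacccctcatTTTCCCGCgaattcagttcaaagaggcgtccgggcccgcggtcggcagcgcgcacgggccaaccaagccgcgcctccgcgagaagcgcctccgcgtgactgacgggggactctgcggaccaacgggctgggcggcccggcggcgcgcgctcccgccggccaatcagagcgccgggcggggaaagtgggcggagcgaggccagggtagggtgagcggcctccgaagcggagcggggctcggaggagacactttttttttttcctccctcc

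Promoters were found for 9 of the 10 genes, 11 promoters in all, and the exception was *Cbx2*. A motif stood in those of *Ezh2* and *Suz12*. In *Ezh2* it begins at base 4 of the transcribed part, and in *Suz12* it begins 219 bases before the start. Of all 32851 promoters of this length, 514 held a match (1.56%). The 3 promoters printed above are rich in CpG dinucleotides, with 23 in *Ezh1*, 31 in *Ezh2* and 41 in *Suz12*, beside a median of 7 over all promoters. This is not particular to them, since *Ring1* held 37, *Cbx7* 33 and *Eed* 17, although a second promoter of *Mtf2* held 2. Both motifs contain a CpG, so the share over all promoters is not a like comparison for CpG-rich ones. A match is a description of the letters and not evidence of binding.

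In the OSKA − 4OHT group the 10 genes spanned a wide range of levels, and TPM, being scaled for length, allows genes to be compared. *Rnf2*, *Suz12*, *Ezh2* and *Eed* had the highest means (39.0, 37.5, 32.7 and 29.3 TPM), and each overlapped its neighbour in this order. *Ezh1* at 23.7 TPM overlapped *Eed*. *Mtf2* and *Jarid2*, both at 13.6 TPM, lay below every value of *Ezh1* and overlapped each other. *Ring1* at 5.32 TPM lay below these, and *Cbx7* and *Cbx2*, at 2.10 and 2.08 TPM, were lowest and overlapped. With 4OHT the means of *Rnf2*, *Ezh2* and *Suz12* were 65.6, 59.0 and 52.9 TPM and still overlapped. *Jarid2* averaged 39.5, *Eed* 26.3 and *Mtf2* 25.1 TPM, again with overlap between neighbours. *Ezh1* at 11.2 TPM now lay below every value of *Mtf2* and *Jarid2*. *Cbx7* at 5.88 TPM overlapped *Ring1* at 5.68 TPM and stood above *Cbx2* at 2.61 TPM.

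**Figure D1:**
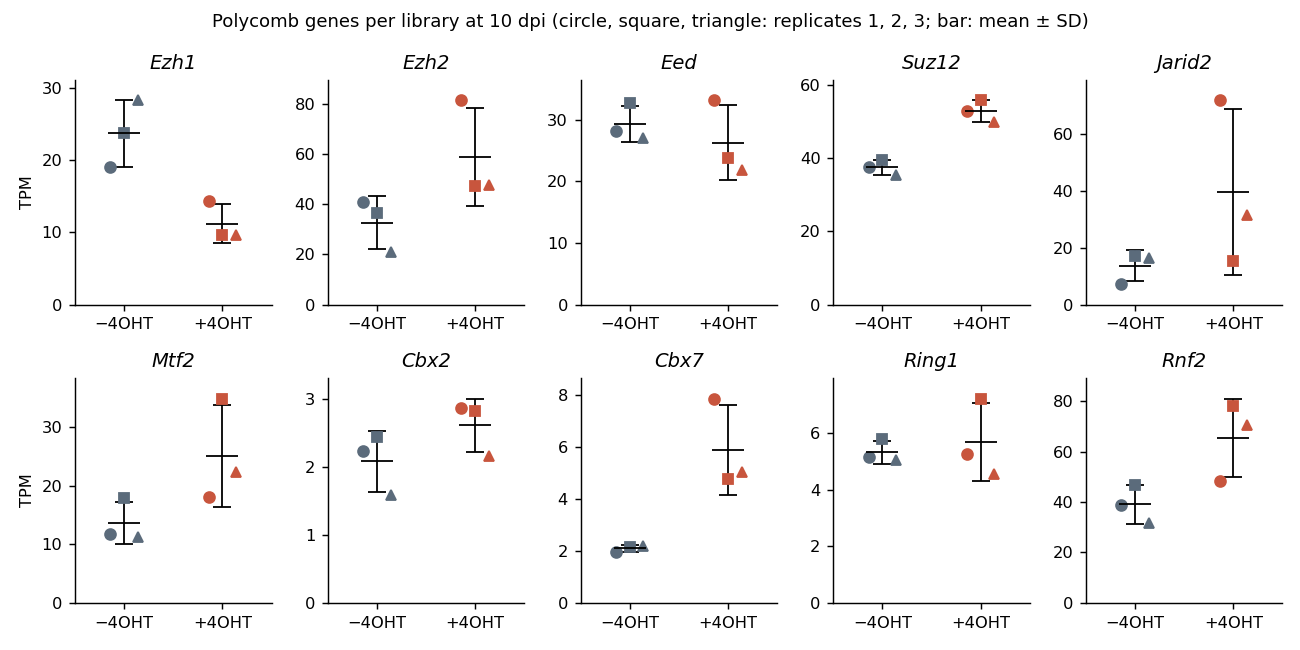
Level of each of the 10 Polycomb genes in TPM (vertical axis, linear, from 0) in the OSKA − 4OHT group (grey) and the OSKA + 4OHT group (red), with 1 symbol per library and bars for the mean ± SD of 3 libraries. The groups do not overlap for *Ezh1*, which is lower with 4OHT, nor for *Ezh2*, *Suz12*, *Mtf2*, *Cbx7* and *Rnf2*, which are higher, and *Jarid2* reaches 71.8 TPM in a single library.

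The question of the comparison was how AKT activation changes the cells during reprogramming. Differences were tested with limma on log2(TPM + 0.5) over 15382 genes, with an adjusted p under 0.05 (Benjamini-Hochberg) as the threshold for a call. None of the 10 genes was called, 0 higher and 0 lower, whereas 3.52% of all tested genes were called higher and 1.97% lower. At an unadjusted p under 0.05, 5 of the 10 were higher and 1 was lower, beside 14.1% and 7.18% of all tested genes. The same 5 and 1 had groups that did not overlap, beside 18.1% higher and 10.0% lower among all tested genes. The log2 fold change was above 0 for 8 of the 10 genes (7 when the libraries were rescaled, where *Ring1* turned below 0), with a median of 0.61, and the median of all tested genes was 0.14. A gene that was not called is not shown to be unchanged, and its 95% interval gives the sizes that the libraries leave possible. Positions of genes below are those of GENCODE M21 on GRCm38. In these bulk wells, fewer cells of a type and less RNA per cell cannot be told apart.

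*Ezh1* (ENSMUSG00000006920, chr11:101191115-101226463, minus strand), the methyltransferase of PRC2 with the weaker activity, was the only one of the 10 whose libraries were all lower with 4OHT than without. It measured 19.1, 23.8 and 28.3 TPM in OSKA − 4OHT replicates 1, 2 and 3 and 14.3, 9.66 and 9.62 TPM in the OSKA + 4OHT replicates. The highest treated library was below the lowest untreated one. The means were 23.7 ± 4.61 and 11.2 ± 2.70 TPM (SD, n = 3), a ratio of 0.472. The log2 fold change was −1.06 (95% interval −1.65 to −0.46; limma, unadjusted p = 0.00451, adjusted p = 0.0641), and 7.28% of all tested genes had a value at least as low. With the libraries rescaled by a trimmed mean of log ratios or by quantile normalization, *Ezh1* passed the threshold (limma, adjusted p = 0.0395 and 0.0360). It did not in any other setting, where the adjusted p reached 0.183 with all 6 libraries and lay between 0.0933 and 0.1998 when 1 was left out.

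*Ezh2* (ENSMUSG00000029687, chr6:47530139-47595341, minus strand), the main methyltransferase of PRC2 in dividing cells, differed the other way. Without 4OHT it measured 40.8, 36.5 and 20.8 TPM, and with 4OHT 81.6, 47.4 and 47.9 TPM. All treated libraries were above all untreated ones, although OSKA + 4OHT replicate 1 stood far above the other two. The means were 32.7 ± 10.5 and 59.0 ± 19.6 TPM (SD, n = 3), and the log2 fold change was 0.85 (95% interval 0.04 to 1.65; limma, adjusted p = 0.214). Without OSKA + 4OHT replicate 1 it was 0.59, and without OSKA − 4OHT replicate 3, the library with the lowest *Ezh2*, it was 0.56.

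The other core subunits are not catalytic. EED reads the methylated histone and stimulates the enzyme, and SUZ12 holds the complex together. *Suz12* (ENSMUSG00000017548, chr11:79993106-80034123, plus strand) varied little between wells, at 37.5, 39.5 and 35.5 TPM without 4OHT and 53.0, 55.8 and 49.9 TPM with it. The gap between the groups was wider than the spread within either. The means were 37.5 ± 1.99 and 52.9 ± 2.98 TPM (SD, n = 3), and the log2 fold change was 0.49 (95% interval 0.16 to 0.82; limma, adjusted p = 0.10). Leaving out any single library kept it between 0.45 and 0.53.

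*Eed* (ENSMUSG00000030619, chr7:89954654-89980983, minus strand) measured 28.2, 32.7 and 27 TPM without 4OHT and 33.2, 23.8 and 21.8 TPM with it. The groups overlapped, and OSKA + 4OHT replicate 1 was the highest library of all. Its log2 fold change was −0.17 (95% interval −0.68 to 0.33; limma, adjusted p = 0.674). The value lay between −0.35 and −0.05 when 1 library was left out, and was −0.30 and −0.31 under the trimmed-mean and quantile scalings. The interval ends short of the estimates for *Ezh1* below and *Suz12* above.

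JARID2 and MTF2 are accessory subunits that help PRC2 to reach its targets, and both are prominent in embryonic stem cells. *Jarid2* (ENSMUSG00000038518, chr13:44729474-44921643, plus strand) measured 7.36, 17.0 and 16.4 TPM without 4OHT and 71.8, 15.1 and 31.4 TPM with it. The high mean of the treated group rested on replicate 1, and replicate 2 lay within the untreated range. In the main fit the log2 fold change was the largest of the 10 at 1.32, with the widest interval (−0.14 to 2.77; limma, adjusted p = 0.278). Without OSKA + 4OHT replicate 1 it was 0.75, and without OSKA + 4OHT replicate 2 it was 1.86. *Cbx7* exceeded *Jarid2* at a pseudocount of 0.1 TPM (1.41 against 1.34) and without OSKA + 4OHT replicate 1 (1.05 against 0.75). The same order held without OSKA − 4OHT replicate 1 and without OSKA + 4OHT replicate 3. The coefficient of variation between the treated wells was 73.9%, and *Jarid2* has 16 annotated transcripts, whose shortest is 344 bases and whose longest coding one is 5997 bases.

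*Mtf2* (ENSMUSG00000029267, chr5:108065674-108109004, plus strand) measured 11.8, 17.8 and 11.2 TPM without 4OHT and 18.1, 34.9 and 22.3 TPM with it. The groups were separated by a narrow gap between OSKA − 4OHT replicate 2 and OSKA + 4OHT replicate 1. The means were 13.6 ± 3.66 and 25.1 ± 8.72 TPM (SD, n = 3), and the log2 fold change was 0.83 (95% interval 0.09 to 1.58; limma, adjusted p = 0.190). Without OSKA + 4OHT replicate 2 it was 0.57. *Mtf2* shares its place in PRC2 with the paralogs *Phf1* and *Phf19*, and it held 55.3% ± 6.73 of their summed TPM without 4OHT and 57.5% ± 1.96 with it (SD, n = 3).

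In PRC1, RING1 and RNF2 are the alternative E3 ligases that ubiquitinate histone H2A. *Rnf2* (ENSMUSG00000026484, chr1:151458004-151500955, minus strand) measured 38.8, 46.7 and 31.6 TPM without 4OHT and 48.2, 78.0 and 70.5 TPM with it. The groups did not overlap, with a small gap between OSKA − 4OHT replicate 2 and OSKA + 4OHT replicate 1. The means were 39.0 ± 7.56 and 65.6 ± 15.5 TPM (SD, n = 3), and the log2 fold change was 0.73 (95% interval 0.15 to 1.31; limma, adjusted p = 0.152).

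*Ring1* (ENSMUSG00000024325, chr17:34020792-34024680, minus strand) was expressed at a lower level, with 5.14, 5.79 and 5.03 TPM without 4OHT and 5.26, 7.21 and 4.55 TPM with it. The groups overlapped, and the treated libraries held both the highest and the lowest value. Its log2 fold change was 0.06 (95% interval −0.56 to 0.69; limma, adjusted p = 0.915). The sign turned to −0.05 and −0.11 under the trimmed-mean and quantile scalings.

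CBX2 and CBX7 are alternative chromobox subunits that bind the histone mark left by PRC2. *Cbx7* (ENSMUSG00000053411, chr15:79915807-79971119, minus strand) measured 1.96, 2.16 and 2.18 TPM without 4OHT and 7.86, 4.76 and 5.03 TPM with it. Each treated library was above 2 times the highest untreated one. The means were 2.10 ± 0.124 and 5.88 ± 1.72 TPM (SD, n = 3), a ratio of 2.80. The log2 fold change was 1.26 (95% interval 0.52 to 2.01; limma, unadjusted p = 0.00556, adjusted p = 0.0708), and 10.1% of all tested genes had a value at least as high. In the other settings with all 6 libraries the adjusted p lay between 0.0507 and 0.180.

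*Cbx2* (ENSMUSG00000025577, chr11:119022962-119031270, plus strand) measured 2.23, 2.44 and 1.58 TPM without 4OHT and 2.86, 2.81 and 2.16 TPM with it. OSKA + 4OHT replicate 3 fell among the untreated values. Its log2 fold change was 0.28 (95% interval −0.57 to 1.12; limma, adjusted p = 0.692), falling to 0.13 without OSKA − 4OHT replicate 3 and to 0.01 under quantile normalization. *Cbx2*, *Cbx7* and *Ring1* rested on few reads, about 5.14 to 36.9 per library by an approximate estimate of the depth, so their values are less precise than those of *Suz12*, which had about 129 to 354.

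**Figure D2:**
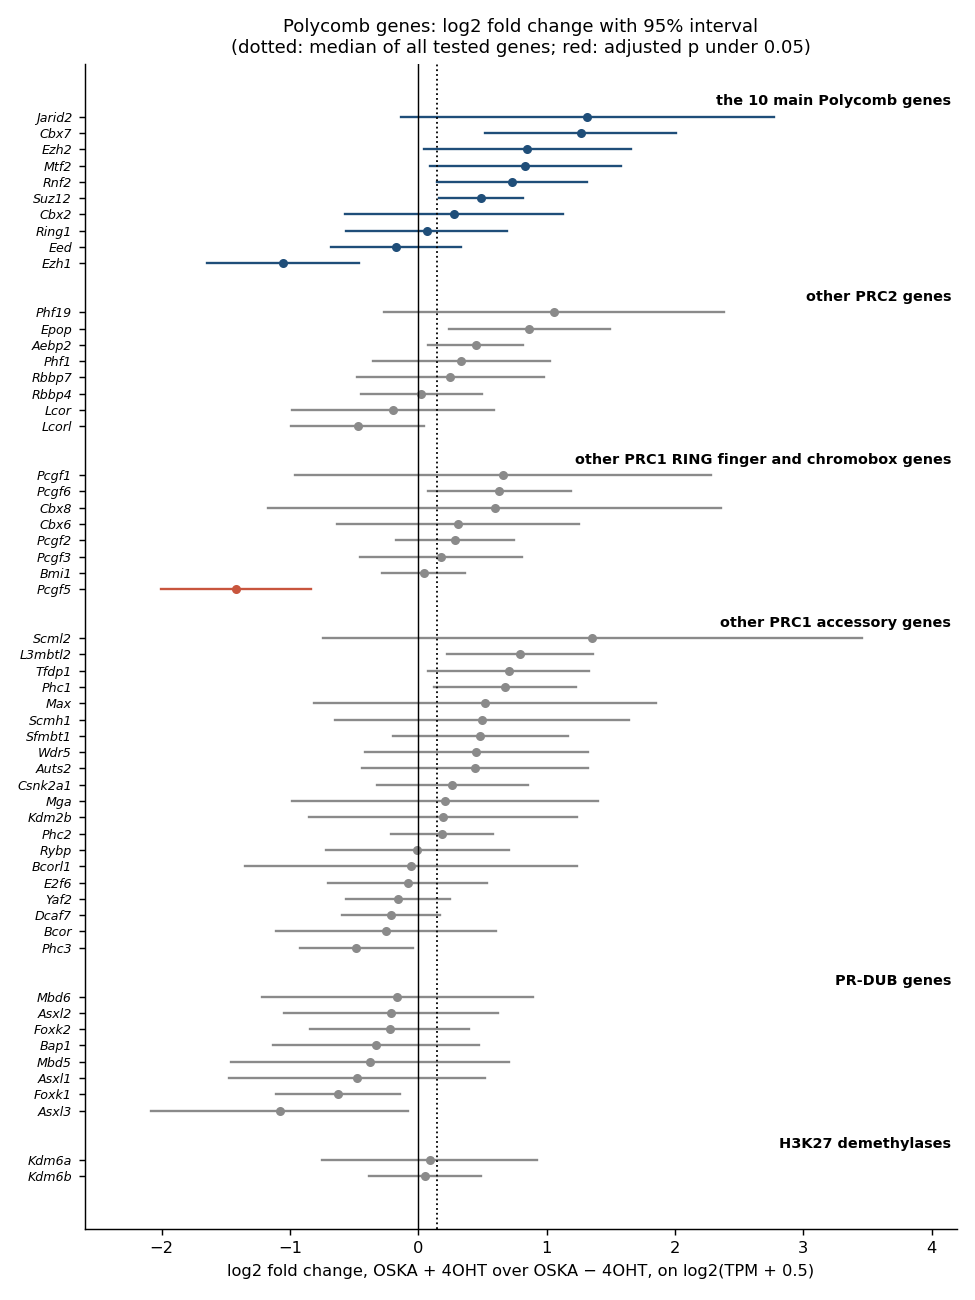
Log2 fold change of OSKA + 4OHT over OSKA − 4OHT on the log2(TPM + 0.5) scale (horizontal axis) for the 10 genes and 46 other Polycomb genes, with lines for the 95% interval and a dotted line at the median of all tested genes, 0.14. *Pcgf5*, in red, is the only gene with an adjusted p under 0.05, *Ezh1* lies lowest of the 10, and all 8 genes of the PR-DUB complex lie below 0.

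A ratio of the TPM of paralogs within a library does not change when all values of the library are multiplied by a factor, so the balance of each pair was compared over the 6 libraries. The TPM of *Ezh2* was 2.14, 1.54 and 0.737 times that of *Ezh1* in OSKA − 4OHT replicates 1, 2 and 3, and 5.71, 4.91 and 4.98 times in the OSKA + 4OHT replicates. *Ezh1* was thus the more abundant of the pair in 1 untreated library and in no treated one. The mean log2 ratio, with 0.5 TPM added to each gene, was 0.42 ± 0.77 without 4OHT and 2.32 ± 0.13 with it (SD, n = 3), a difference of 1.90. Because *Ezh1* and *Ezh2* lay in opposite directions, the difference of their ratio exceeded that of either gene. Leaving out 1 library kept it between 1.48 and 2.23, and the lowest value came without OSKA − 4OHT replicate 3.

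As a share of the summed TPM of the pair, *Ezh1* made up 31.8%, 39.5% and 57.6% without 4OHT and 14.9%, 16.9% and 16.7% with it. The spread was wide in the untreated wells and narrow in the treated ones. The summed TPM itself was 59.9, 60.2 and 49.1 without 4OHT and 96.0, 57.1 and 57.6 with it, so the groups overlapped in the total while they did not in the share.

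For *Rnf2* over *Ring1* the ratio was 7.54, 8.07 and 6.28 without 4OHT and 9.17, 10.8 and 15.5 with it. The groups did not overlap, and *Rnf2* was the more abundant gene in all 6 libraries. The difference of the mean log2 ratio was 0.66, and leaving out 1 library placed it between 0.46 and 0.83. For *Cbx7* over *Cbx2* the ratio was 0.880, 0.887 and 1.38 without 4OHT and 2.75, 1.69 and 2.33 with it, a difference of 0.99 on the log2 scale. *Cbx2* was the more abundant of the pair in 2 untreated libraries and in no treated one. Each of the 3 ratios gave p = 0.1 in a two-sided exact permutation test, which is the smallest that 3 libraries against 3 can give. It does not change on Benjamini-Hochberg adjustment over the 3 ratios. For *Ezh2* over *Ezh1* this result followed from the separation of both genes in opposite directions and adds nothing to it. How often the ratios of other pairs of genes separate the groups was not tested.

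**Figure D3:**
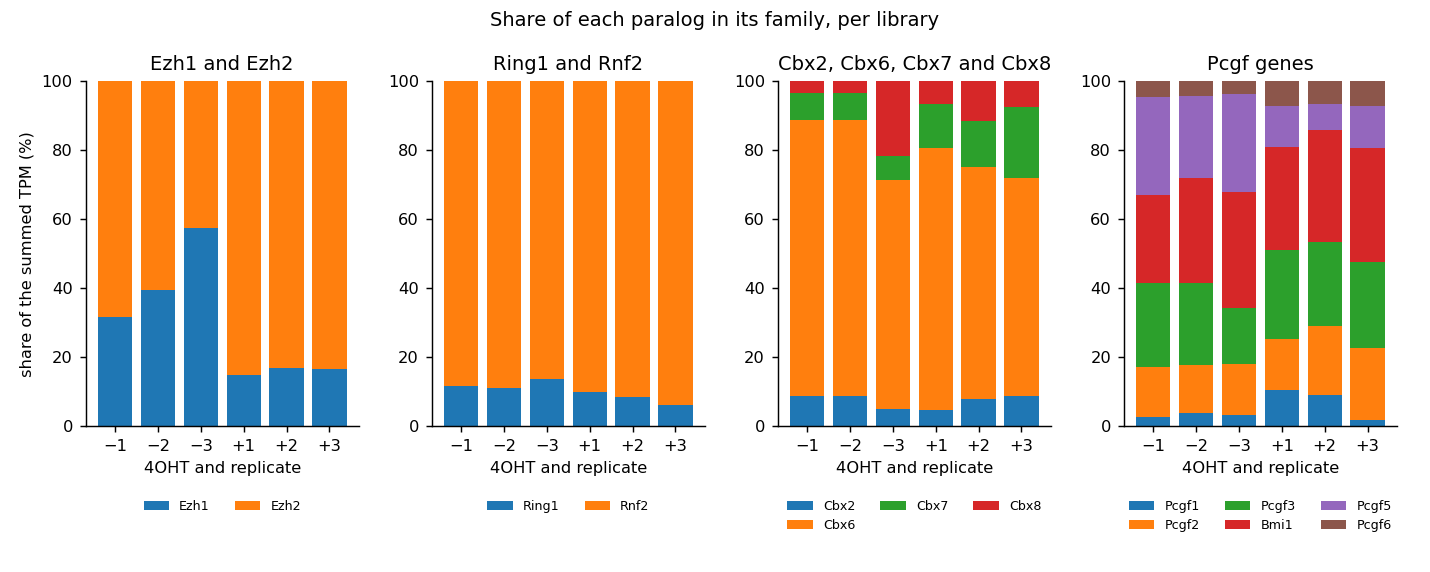
Share of each paralog in the summed TPM of its family (vertical axis, percent) in each library, with − and + for the OSKA − 4OHT and OSKA + 4OHT groups and the replicate number, in 4 panels. *Ezh1* makes up 31.8% to 57.6% of its pair without 4OHT and 14.9% to 16.9% with it, *Cbx7* on average 7.56% and 15.5% of *Cbx2*, *Cbx6*, *Cbx7* and *Cbx8*, and *Pcgf5* on average 26.8% and 10.4% of the *Pcgf* genes.

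Among *Cbx2*, *Cbx6*, *Cbx7* and *Cbx8*, chromobox genes of PRC1, *Cbx6* was the most abundant in every library. *Cbx7* made up 7.84%, 7.75% and 7.09% of their summed TPM without 4OHT and 12.7%, 13.3% and 20.6% with it, with no overlap. *Cbx2* took 7.59% ± 2.13 and 7.10% ± 2.20 (SD, n = 3). *Cbx6* took 75.3% ± 7.91 and 68.8% ± 6.51, and the groups overlapped for both.

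Of 48 further genes of the Polycomb system, 47 were in the table and 46 were tested; *Ezhip* was not analysed. Of these, 0 were called higher and 1 was called lower, beside 3.52% and 1.97% of all tested genes, and the median log2 fold change was 0.18. Their groups did not overlap in 7 higher and 5 lower genes, shares near the 18.1% and 10.0% of all tested genes. The gene called was *Pcgf5*, whose protein pairs with RING1 or RNF2 in a variant PRC1 that acts without a chromobox subunit. It measured 43.4, 31.6 and 33.7 TPM without 4OHT and 15.6, 9.80 and 14.6 TPM with it. Every treated library was below 0.5 times the lowest untreated one. Its log2 fold change was −1.42 (95% interval −2.0 to −0.84; limma, adjusted p = 0.0279), but the call was lost when any 1 of the 6 libraries was left out (limma, adjusted p between 0.0724 and 0.0844). In those fits the log2 fold change lay between −1.55 and −1.22. The call was also lost with the replicate number as a block.

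The 6 *Pcgf* genes define the variants of PRC1, and their summed TPM was 134.9 ± 16.4 without 4OHT and 128.7 ± 7.70 with it (SD, n = 3). *Pcgf5* made up 28.6%, 23.7% and 28.2% of it without 4OHT and 11.7%, 7.43% and 12.2% with it. *Bmi1*, the PCGF of a canonical PRC1, made up 29.8% ± 4.28 and 31.9% ± 1.64 (SD, n = 3), with overlap. Named here after their values were seen, *Pcgf2* and *Pcgf6* also had shares without overlap, 14.3% ± 0.448 and 18.5% ± 3.27 for *Pcgf2* and 4.27% ± 0.367 and 7.12% ± 0.334 for *Pcgf6*. The TPM of *Pcgf2* itself overlapped between the groups, with a log2 fold change of 0.29 (limma, adjusted p = 0.453).

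No other gene of the Polycomb system was called. Among the 8 other PRC2 genes tested, 6 were above 0 with a median log2 fold change of 0.29, from *Lcorl* at −0.47 to *Phf19* at 1.06 (limma, adjusted p = 0.274 and 0.335). PHF19 is a paralog of MTF2, and the value of *Phf19* ran from 0.52 to 1.36 when 1 library was left out. The 8 other RING finger and chromobox genes of PRC1, *Pcgf5* among them, had a median of 0.30 and reached 0.66 in *Pcgf1* (limma, adjusted p = 0.610). *Pcgf1* was at 14.1 and 12.1 TPM in OSKA + 4OHT replicates 1 and 2 but at 2.08 TPM in replicate 3, below every untreated library, and its value ran from 0.21 to 1.46 when 1 library was left out. The 20 accessory PRC1 genes had a median of 0.24, from *Phc3*, a polyhomeotic subunit, at −0.49 to *Scml2* at 1.36 (limma, adjusted p = 0.196 and 0.436). *Scml2* was low, at 4.48, 0.492 and 0 TPM without 4OHT, and its value ran from 0.64 to 2.30 when 1 library was left out and from 0.64 to 2.24 under other settings.

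All 8 genes of PR-DUB, the deubiquitinase complex that removes the H2A mark set by PRC1, had a log2 fold change below 0. The median was −0.35, from *Mbd6* at −0.16 to *Asxl3* at −1.08 (limma, adjusted p = 0.867 and 0.206), and 2 of the 8 were lower without overlap, beside 10.0% of all tested genes. When 1 library was left out, 4 of the 8 reached a value at or above 0 in at least 1 fit, up to 0.24 in *Mbd6*. *Asxl3* measured 2.02, 3.15 and 3.50 TPM without 4OHT and 1.31, 0.785 and 1.17 TPM with it. Its log2 fold change ran from −1.55 to −0.65 under other settings with all 6 libraries. Among all tested genes 59.3% were above 0, and none of the 8 was called. The demethylases that erase the H3K27 mark, *Kdm6a* and *Kdm6b*, had values of 0.09 and 0.05, and both lay below 0 in at least 1 other setting with all 6 libraries (lowest −0.06 and −0.12). *Kdm6a* ran from −0.21 to 0.34 when 1 library was left out.

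Markers of other cells and states were called in part, beside 3.52% of all tested genes called higher and 1.97% lower. All 20 proliferation genes tested were above 0, 6 of them were called higher (*Top2a*, *Ccnb1*, *Cdk1*, *Plk1*, *Birc5* and *Rrm2*), and the summed TPM was 882.8 to 1099 without 4OHT and 1441 to 1770 with it. When 1 library was left out, *Mcm2* and *Tyms* reached values below 0 in at least 1 fit, down to −0.17 and −0.01. Of 13 markers of pluripotent cells tested, 7 were called higher (*Nanog*, *Zfp42*, *Dppa5a*, *Tdgf1*, *Gdf3*, *Epcam* and *Cdh1*), and the summed TPM of the 16 on the list was 53.2 to 65.9 and 177 to 196.3, with *Dppa3* listed at 0 in every library. Of 16 fibroblast markers, 3 were called lower (*Pdgfrb*, *Col1a2* and *Fbln2*) and 1 higher (*Lum*), and the summed TPM was 4272 to 5042 and 2900 to 3279, so fibroblast genes stayed abundant with 4OHT. *Col1a2* alone averaged 1641 and 900.9 TPM, so the sum leans on few genes. Without overlap, 8 of the 16 were lower and 3 higher, beside 10.0% and 18.1% of all tested genes. Of 12 macrophage markers 1 was called lower (*Lyz2*), and the sum was 182.9 to 221.5 and 127.6 to 142.1. *Lyz2* alone averaged 95.2 and 51.8 TPM, and 3 of the 12 were above 0, with *Cd68* at 0.34. Among these marker calls, those of *Cdk1*, *Plk1*, *Dppa5a*, *Gdf3*, *Cdh1*, *Lum* and *Fbln2* held whichever library was left out, and those of *Birc5*, *Epcam* and *Col1a2* were lost whichever was left out. With all 6 libraries, each marker call except that of *Dppa5a* was lost in at least 1 other setting. The part of these markers in the levels of the Polycomb genes was not tested.

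**Figure D4:**
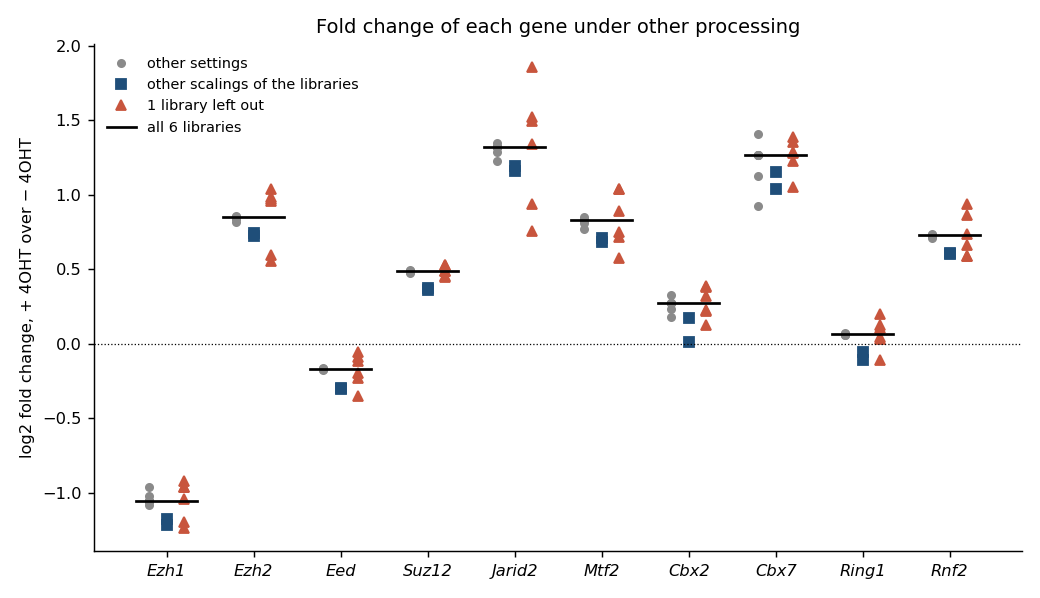
Log2 fold change of each of the 10 genes (vertical axis) with all 6 libraries (black line), under other scalings of the libraries (blue), under the other settings (grey) and with 1 library left out (red). *Ring1* is the only gene that changes sign, *Jarid2* runs from 0.75 to 1.86, and *Suz12* stays between 0.45 and 0.53 when 1 library is left out.

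The approximate depth of the libraries, relative to the deepest, was 0.499, 1 and 0.557 without 4OHT and 0.893, 0.920 and 0.800 with it, so 2 of the 3 untreated libraries were shallower than the others. Between 15814 and 18230 genes were above 0 per library. On GRCm38 the exons of *Ezh2*, *Eed*, *Suz12*, *Mtf2*, *Cbx7* and *Rnf2* share between 100 and 395 bases with a gene on the opposite strand. The libraries keep the strand, but whether the quantification used it is not given in the sources used here. A transcript of *Gm49301* matches *Mtf2* at 91.8% identity over 329 of 4060 bases, where reads could be divided between these genes.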

How the data were processed

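RNA was measured in 6 libraries, 3 per group. The authors trimmed the reads of stranded polyA libraries with Trim Galore, quantified them with Salmon and deposited TPM per gene, which add up to 1000000 in each library. Versions and annotation release are not given in the sources used here. The deposited columns of the authors' own comparison (fold change, average level, test statistic and p-value) were not used.

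Symbols and positions came from GENCODE M21 on GRCm38 by Ensembl identifier. The test was limma-trend (limma 3.58.1, R 4.3.3) of log2(TPM + 0.5) for genes averaging 1 TPM or more, with Benjamini-Hochberg adjustment, so a fold change understates that of low genes. The fit was tested on data simulated on the same log2(TPM + 0.5) scale, which cannot test the pseudocount. Low genes were not among those given a change in it. Ratios of paralogs were compared by an exact permutation test. Depth is not kept in TPM. It was approximated from steps of TPM times effective length in genes with 1 transcript, assuming fragments of 250 bases. Similar transcripts were searched with BLAST 2.17.0.

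The members and lists were chosen with earlier results of these data known. The text names the 10 genes, every called gene of the other lists, and, per Polycomb list, those of highest and lowest fold change. Paralogs are named where their shares of a summed TPM are given. Named outside these rules were *Mcm2*, *Tyms*, *Cd68* and *Dppa3* among the markers, *Ezhip*, which was not analysed, and *Gm49301*, which resembles *Mtf2*. A result for 1 gene is not reported here. Alternatives were other pseudocounts, filters, scalings and variance models, the replicate number as a block, a fold threshold, and leaving out each library.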

Additional observations from a re-analysis of the deposited data

How the results depend on the processing

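Of 158 fits of a single gene of the 10 under another setting, 153 kept the direction and the side of the threshold. The filters, the replicate block and the other variance models leave a fold change as it is, so those fits could not change direction. None of the 10 was called in the main fit, so the side kept was that of no call, and leaving out 1 library makes calls harder. The count is thus no measure of how firm the values are. Over all tested genes, rescaling moved the median of the log2 fold changes from 0.14 to 0.03 (trimmed mean of log ratios) and to 0.00 (quantile normalization, −0.0047), and moved the share of higher genes among all those called from 64.1% to 48.7% and 49.7%. Under both, 1 of the 10 genes was called lower in place of 0, *Ezh1* at −1.18 and −1.22. *Ring1* changed sign to −0.0542 and −0.1116 under these scalings and lay between −0.107 (without OSKA + 4OHT replicate 2) and 0.1985 when 1 library was left out. Leaving out 1 library left 0 of the 46 other Polycomb genes called lower in each of the 6 fits, in place of 1, with fewer libraries in the fit. It called between 137 and 357 genes higher and between 68 and 148 lower over all genes.

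The correlations of deviations between libraries of the same replicate number were 0.02, 0.03 and 0.08, and those between different numbers ran from −0.06 to 0.03. Values this small do not show a pairing by number and cannot exclude one. With the replicate block, 0 of the other Polycomb genes were called lower, 0 of the 10 genes were called, and 31 genes were called higher and 16 lower over all genes. In this balanced design the replicate block cannot move a difference of group means, so it is no check of the ratios *Ezh2* to *Ezh1*, *Rnf2* to *Ring1* and *Cbx7* to *Cbx2*. Every library left out and every pseudocount kept the sign of these ratios' differences. No filter gave 415 genes higher and 219 lower, and no trend in the variance 435 and 212. A mean of at least 5 TPM left *Cbx2* and *Cbx7* untested.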
